A study of Caenorhabditis elegans with 2 samples.

Results

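The histone genes of the nematode Caenorhabditis elegans were examined for peaks of the nuclear hormone receptor NHR-11. They were all genes whose name in the Ensembl annotation of WBcel235 starts with his-, 72 of 46890 annotated genes. NHR-11 had been mapped by chromatin immunoprecipitation followed by sequencing (ChIP-seq), in which DNA bound by a protein is recovered with an antibody and sequenced. The material was whole late embryos of strain OP305, pooled male and female and of unknown age, with the allele unc-119(ed3) and the transgene wgIs305, from which eGFP-tagged NHR-11 is made. It formed 1 group of 2 biological replicates, both with the same allele and transgene, with no second condition. The promoter that drives the transgene was not stated in the labels, and the control that they name was not analysed here. A signal from whole embryos cannot be assigned to a cell type, and binding in few cells cannot be told apart from weak binding in many.

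Histones package DNA into nucleosomes, whose core holds H2A, H2B, H3 and H4, while the linker histone H1 sits between nucleosomes. Most core histone genes are transcribed during DNA replication, lie in clusters of near-identical copies, and often share 1 promoter region between genes transcribed away from each other. Variant H3.3 genes lie apart and supply histone outside replication. Nuclear hormone receptors bind DNA through a zinc-finger domain, typically at half-sites such as AGGTCA.

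By RefSeq product, the 72 genes were 17 H2A, 16 H2B, 15 H3, 16 H4, 5 H3.3-type and 1 H1 gene (his-24), with 2 genes, his-39 and his-73, of no assigned type. Ensembl gave these 72 genes only 50 distinct names, 14 of them shared by several genes. All 72 matched a RefSeq gene of the same coordinates, and the RefSeq symbols, which are distinct, are used below. A cluster was a run of 2 or more histone genes with gaps of at most 5000 bp. This gave 14 clusters with 67 genes and left 5 isolated genes, his-24, his-71, his-72, his-73 and his-74. Type and arrangement were confounded, since no isolated gene encoded canonical H2A, H2B, H3 or H4. Of the 72 genes, 62 formed 31 divergent pairs, 16 of H2A with H2B, 14 of H3 with H4 and 1 of H4 with H2A. The 5′ ends of a pair were separated by a spacer of 227 to 368 bp, with a median of 258 bp. These are annotated ends, and that of his-32 falls on an ATG. Where an annotated end is a start codon, spacer and promoter window can include untranslated sequence of the gene.

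The sequences below, from the RefSeq WBcel235 genome and written on its plus strand, are shown because the peaks beside histone genes fall in them or are missing from them. The first 4 are the 151 bases around a pooled summit, the highest point of a peak called from both replicates together. The his-37 stretch is at chrV:9546917-9547067, that of his-60 and his-59 at chrIV:7488012-7488162, that of his-72 at chrIII:12369333-12369483, and that of his-9 and his-25 at chrII:13824377-13824527. The last 2 are whole spacers, of his-16 and his-15 (chrII:13818144-13818370) and of his-51 and his-52 (chrV:8850172-8850463). The 4 summits and both spacers are intergenic. Capitals mark GTGTCCCC or its reverse complement GGGGACAC, the 8-base word found in the most spacers.
his-37: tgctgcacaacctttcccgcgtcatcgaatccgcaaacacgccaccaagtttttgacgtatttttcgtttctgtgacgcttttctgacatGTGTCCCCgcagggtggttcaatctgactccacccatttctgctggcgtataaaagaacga
his-60/his-59: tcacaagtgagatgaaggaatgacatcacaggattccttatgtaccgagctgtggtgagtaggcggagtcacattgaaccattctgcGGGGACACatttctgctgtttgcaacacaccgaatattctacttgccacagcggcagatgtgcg
his-72: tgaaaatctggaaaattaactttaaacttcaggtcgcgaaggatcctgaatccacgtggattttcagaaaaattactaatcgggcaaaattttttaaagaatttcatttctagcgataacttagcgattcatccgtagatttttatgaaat
his-9/his-25: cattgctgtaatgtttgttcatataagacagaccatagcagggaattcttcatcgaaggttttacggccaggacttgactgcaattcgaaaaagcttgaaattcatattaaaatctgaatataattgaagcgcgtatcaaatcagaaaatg
his-16/his-15: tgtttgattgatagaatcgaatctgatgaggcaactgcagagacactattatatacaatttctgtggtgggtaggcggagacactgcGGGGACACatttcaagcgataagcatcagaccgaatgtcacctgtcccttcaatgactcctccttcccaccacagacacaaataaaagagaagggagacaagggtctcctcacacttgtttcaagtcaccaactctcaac
his-51/his-52: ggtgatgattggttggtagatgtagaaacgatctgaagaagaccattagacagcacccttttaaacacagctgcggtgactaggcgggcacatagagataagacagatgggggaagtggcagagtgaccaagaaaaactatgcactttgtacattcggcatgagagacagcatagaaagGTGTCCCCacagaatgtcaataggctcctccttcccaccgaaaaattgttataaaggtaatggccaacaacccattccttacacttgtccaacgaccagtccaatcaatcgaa

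The first question was how many histone genes had a peak near their 5′ end, taken as the strongest peak whose summit lay within 1000 bp. In the authors' pooled list of 9931 peaks, 10 of the 72 genes (13.9%) had such a peak, against 21.0% of all genes and 20.7% of protein-coding genes. In the lists of the single replicates, 20 genes (27.8%) had a summit in replicate 1 and 27 (37.5%) in replicate 2, against 46.1% and 49.9% of all genes. A summit in the pooled list and in both replicate lists was found at 7 histone genes (9.72%), against 15.3% of all genes. No summit in any of these lists was found at 37 histone genes (51.4%), against 31.4% of all genes. These lists hold peaks together with background regions, so a listed peak is not by itself a bound site. In the authors' thresholded list of 101 reproducible peaks, 3 histone genes (4.17%) had a summit, against 0.292% of all genes. Among the 1000 strongest pooled peaks, 4 of the 72 histone genes had one, against 1109 of 46890 of all genes (2.37%). Histone genes were therefore below the background in the long lists and above it among the strongest peaks, the latter through 3 summits. Of these, the summit assigned to his-74 (rank 974) was nearer to another gene, ccch-3.

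The 10 genes shared 7 pooled summits as their strongest, of which 4 lay within 500 bp of a histone 5′ end, at 6 genes. A further pooled summit, of signal 36.01 (rank 1019), lay within 1000 bp of his-67 and was not its strongest. The signals of the 7, in the authors' own unit, were 22.1 to 90.5 with a median of 32.3. The 5087 pooled summits that were the strongest within 1000 bp of some gene had a median of 26.3. Both replicate lists had a summit within 200 bp of the pooled one at 5 of the 7 (71.4%), against 56.0% of all pooled summits. Replicate signals were not stated to be scaled to each other, and the sequencing depth was unknown.

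**Figure D1:**
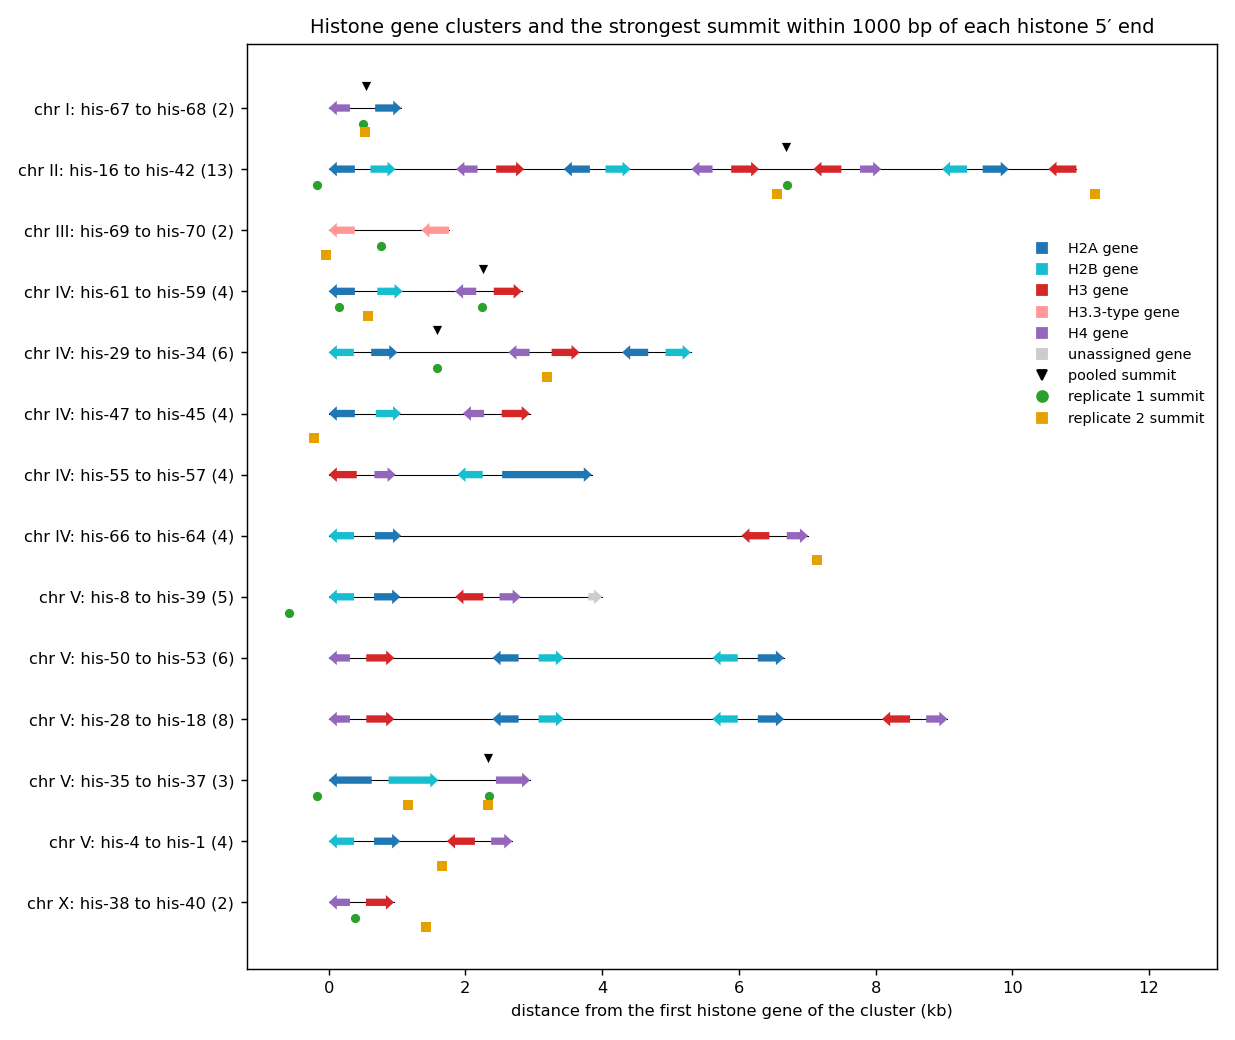
Histone genes of the 14 clusters, drawn to scale as arrows in the direction of transcription and coloured by histone type, against distance in kb from the first gene of the cluster; the number of genes is in brackets. Symbols mark the strongest summit within 1000 bp of each 5′ end in the pooled list (triangles), replicate 1 (circles) and replicate 2 (squares). Pooled summits appear in 5 clusters, and the clusters his-50 to his-53, his-28 to his-18 and his-55 to his-57 have no symbol.

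The 2 strongest of the 7 were the thresholded ones. The summit between the H4 gene his-67 and the H2A gene his-68, on chromosome I, had a signal of 90.5 (rank 15 of the pooled list), with 36.3 in replicate 1 (rank 82) and 56.0 in replicate 2 (rank 8). It lay 240 bp upstream of his-67 and 129 bp upstream of his-68, inside their spacer of 368 bp, the longest of the 31. This peak matched 5 other places of the genome at 90% identity or more, over at most 50 bp, while that of his-37 matched none. The summit 113 bp upstream of the H4 gene his-37, on chromosome V, had 87.1 (rank 16), with 51.6 in replicate 1 (rank 8) and 31.9 in replicate 2 (rank 67). The replicates thus ordered the pair differently, his-37 first in replicate 1 and his-67 with his-68 first in replicate 2. The replicate summits lay 46 and 25 bp from the pooled summit at his-67 and his-68, and 15 and 2 bp at his-37. The deposited q-value, the false discovery rate of a peak within its own list, was 0.0189 for both in the pooled list. In replicate 2 it was 0.011 for his-67 and his-68 and 0.0677 for his-37.

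A weaker summit lay in the spacer of the H4 gene his-60 and the H3 gene his-59, on chromosome IV. It was 95 bp upstream of his-60 and 162 bp upstream of his-59, with a pooled signal of 22.1 (rank 9218 of 9931). Replicate 1 had 14.9 (rank 7883), and replicate 2 had no summit within 1000 bp of either gene. The pooled q-value was 0.948, and the peak matched 5 other places over up to 130 bp. Together, his-67 with his-68 and his-60 with his-59 were the only 2 of the 31 divergent pairs with a pooled summit between their 5′ ends.

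The remaining 4 pooled summits were less close to a histone promoter. The H3.3 gene his-72, on chromosome III, had a summit 358 bp upstream, with a signal of 32.3 (rank 1795), 16.9 in replicate 1 and 13.4 in replicate 2. A shorter annotated his-72 transcript starts further downstream, and from its 5′ end the summit was 1244 bp away. The summit assigned to the H3.3-type gene his-74, on chromosome V, had 36.3 (rank 974), with 10.7 in replicate 1 (rank 20627) and 18.6 in replicate 2 (rank 1492). It fell in the 3′ UTR of his-74, 535 bp downstream of its 5′ end, and 108 bp from that of ccch-3, the nearest gene. The summit assigned to the H2A gene his-30, on chromosome IV, with 24.9 (rank 5896), was 959 bp from his-30 and 201 bp from lys-10. Replicate 1 had 26.8 there (rank 426) and replicate 2 no summit within 1000 bp of his-30. The summit of the H3 genes his-9 and his-25, on chromosome II, lay between their 3′ ends, 804 and 807 bp from their 5′ ends, with 32.0 (rank 1879). It had 20.2 in replicate 1 (rank 2158) and 9.01 in replicate 2 (rank 22601). Thus his-30 was the gene just inside the limit of 1000 bp, and his-10 and his-26, at 1077 and 1080 bp from the summit of his-9, were just outside it.

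**Figure D2:**
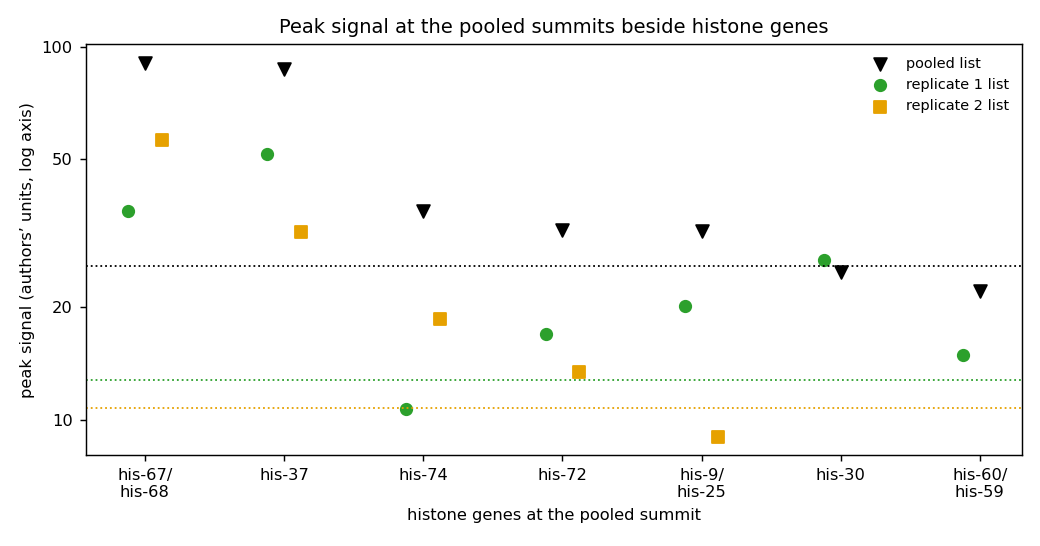
Peak signal (authors' units, log axis) at the 7 pooled summits assigned to histone genes, in the pooled list (triangles) and at the nearest summit within 200 bp in replicate 1 (circles) and replicate 2 (squares); dotted lines are the medians of the whole lists, 25.9, 12.8 and 10.7. The summits at his-67 with his-68 and at his-37 are above every other one in all 3 lists, and his-30 and his-60 with his-59 have no replicate 2 point.

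The second question was how clustered genes compared with isolated ones. A pooled summit lay near 8 of 67 clustered genes (11.9%), through 5 summits with a median signal of 32.0. It lay near 2 of 5 isolated genes, through 2 summits with a median of 34.3, 1 of which was nearer to ccch-3. These medians do not order the classes: within 500 bp they were 87.1 for clustered and 32.3 for isolated genes, and among the strongest 9931 peaks of either replicate list the clustered median was higher too. Unique windows, with at least 90% of 36-base words found once in the genome, are treated below. In them, 5 of 9 clustered and 2 of 4 isolated genes had a pooled summit. Within clusters the counts differed with the number of genes, and so did this uniqueness. In the clusters of 2 or 3 genes, 3 of 9 genes had a pooled summit and 8 had one in replicate 1. In clusters of 4 or more genes, 5 of 58 (8.62%) had a pooled summit, the best of them at rank 1879, and 37 (63.8%) had no summit in any list. All 3 histone genes with a thresholded summit were in clusters of 2 or 3. Unique windows belonged to 7 of these 9 genes, 3 with a pooled summit, and to 2 of the 58, both with one. The number of genes in a cluster thus cannot be told apart from uniqueness. The other isolated genes appeared in replicate 2 alone. There, his-24, the H1 gene, had a summit 103 bp upstream with 14.9 (rank 4456), his-71, an H3.3 gene, one 149 bp upstream with 8.72 (rank 24233), and his-73 one at position -467 with 10.6 (rank 15210). The his-73 summit was nearer to another gene, W09H1.4, at 290 bp.

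The clusters without a pooled summit had weak ones in single replicates or none. Between the H3.3-type genes his-69 and his-70, which are no divergent pair, replicate 1 had a summit 380 bp from his-69 with 14.8 (rank 8232), and replicate 2 one near his-69 alone with 10.4. Near the H2B gene his-8, replicate 1 had one with 19.1 (rank 2849), in a coding exon of otpl-5. Near his-47 and his-48, an H2A and H2B pair, replicate 2 had one with 15.1 (rank 4290), and near the H3 and H4 pair his-63 and his-64 one with 8.80 (rank 23758). Near his-3, his-2 and his-1 replicate 2 had one with 8.07 (rank 28283), close to the lowest signal of that list, 7.92. Near his-40, an H3 gene, replicate 2 had 14.6 (rank 4995), 872 bp away, while replicate 1 had 10.2 (rank 22791) at 79 bp from its H4 partner his-38. In each of these clusters no gene had summits of both replicates within 200 bp of each other.

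Copy number of the sequence moved with these counts. For each gene, the share of 36-base words (36-mers) within 1000 bp of the 5′ end that occur once in the genome was computed. The median was 29.3% over the 72 histone genes, 26.8% over the clustered ones and 99.9% over the isolated ones, and 100% over all genes. In the clusters his-50 to his-53 (6 genes) and his-28 to his-18 (8 genes), on chromosome V, the median was 0%, and none of their 14 genes had a summit in any list. The cluster of 13 genes from his-16 to his-42, on chromosome II, had a median of 8.65%, with 7 genes without any summit. In the 4 genes from his-55 to his-57 it was 20.5%, and none had a summit. By contrast it was 94.3% for his-67 and his-68, 98.5% for the cluster with his-37, and 100% for his-37 itself.

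The same relation was seen over the whole annotation. Of the 1049 genes with under 50% unique 36-mers, 90.8% had no summit in any list and 1.53% had a pooled summit. Of the 30465 genes with at least 99%, 26.2% had no summit and 23.8% had a pooled one. Of the 41 histone genes under 50%, 32 (78.0%) had no summit in any list. How the authors treated reads that align to several places was not given in the sources used here, and the part of this treatment in the missing peaks was not tested. For these 32 genes, an unbound promoter and one without usable reads cannot be told apart. The other 5 histone genes without a summit had mostly unique windows, his-7 (63.0%), his-5 (64.8%), his-6 (65.8%), his-4 (76.3%) and his-39 (86.5%). The spacer of his-4 and his-3 had only unique 36-mers and held no summit of any list.

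Among genes whose window had at least 90% unique 36-mers, the order was the other way. There, 7 of 13 histone genes (53.8%) had a pooled summit, against 22.8% of all such genes, and none of the 13 lacked a summit in every list. The 7 genes shared 5 summits, so the share by genes counts 2 summits more than once. Of the 7, his-60 and his-59 passed the limit at 90.5%, with a shared summit of rank 9218. The summit of his-74 was nearer to ccch-3. Cytosolic ribosomal protein genes, which encode the protein part of the ribosome, had a pooled summit at 40 of 78 such genes (51.3%). The 6 histone genes without one were his-69, his-70, his-35, his-41, his-71 and his-24. Each of them had a replicate summit with a signal of at most 14.9. Under 90%, 3 of 59 histone genes (5.08%) had a pooled summit, against 659 of 6739 of all such genes (9.78%). Between 50 and 90%, 0 of 18 histone genes had one, against 11.3% of all genes.

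**Figure D3:**
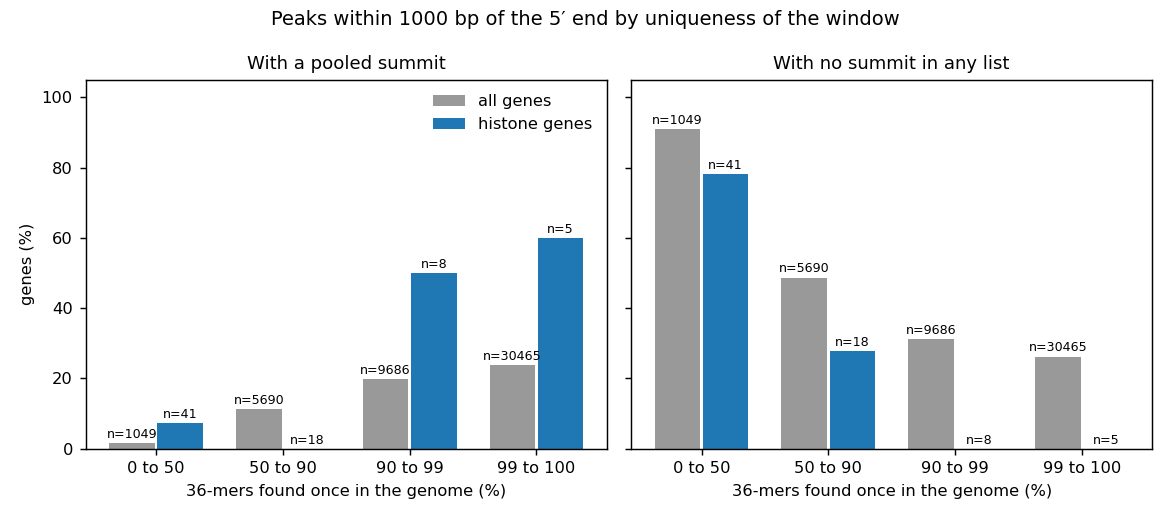
Percent of genes with a pooled summit within 1000 bp of the 5′ end (left) and with no summit in any list (right), by the percent of 36-mers in that window that occur once in the genome; grey bars are all genes, blue bars histone genes, with the number of genes above. The share with a pooled summit rises from 1.53% to 23.8% over the bins for all genes, and for histone genes it is 0% in the second bin and 60% in the last, which holds 5 genes.

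Many spacers were copies of each other. Of the 31 spacers, 24 were at least 90% identical to another and 16 were exact copies, in 6 groups. The his-16/his-15 spacer shown above occurred 3 times, with those of his-12/his-11 and his-44/his-43, and the his-51/his-52 spacer 4 times, with those of his-54/his-53, his-21/his-22 and his-20/his-19. No summit of any list fell in an exact copy. Among 23 spacers with under 90% unique 36-mers, 0 held a summit of any list, and among the other 8, 5 did. These 5 were his-67/his-68 (all lists), his-60/his-59 (pooled and replicate 1), his-38/his-40 (replicate 1, signal 10.2) and his-61/his-62 and his-31/his-32 (replicate 2, 11.4 and 8.90).

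By histone type, pooled summits lay near 2 of 17 H2A genes, 0 of 16 H2B genes, 3 of 15 H3 genes, 3 of 16 H4 genes, 2 of 5 H3.3-type genes and not near his-24. The strongest was 90.5 for H2A and for H4 (the shared his-67 and his-68 summit), 32.0 for H3 (his-9 and his-25) and 36.3 for the H3.3 type (his-74). The weakest was 24.9 for H2A (his-30), 22.1 for H3 and H4 (his-59 and his-60) and 32.3 for the H3.3 type (his-72). For H2B, 15 of the 16 windows had under 90% unique 36-mers, as had 15 of 17 for H2A, 14 of 15 for H3, 13 of 16 for H4 and 0 of 5 for the H3.3 type. The 1 H2B gene with a unique window, his-41, had a summit in replicate 2 alone, 282 bp downstream of its 5′ end in an intron and 274 bp from the 5′ end of C50F4.6, with 9.61. Among windows under 90%, pooled summits lay near 2 of 14 H3, 1 of 15 H2A, 0 of 15 H2B and 0 of 13 H4 genes. These were his-9, his-25 and his-30, with summits 804, 807 and 959 bp from the 5′ end. Among unique windows, pooled summits lay near 3 of 3 H4, 1 of 1 H3, 1 of 2 H2A and 0 of 1 H2B genes. The part of uniqueness in the differences between core types was not tested. The H3.3 type had unique windows alone, so over all windows its share cannot be told apart from uniqueness. Among unique windows it had a pooled summit near 2 of 5 genes, beside the core counts just given, all of few genes.

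**Figure D4:**
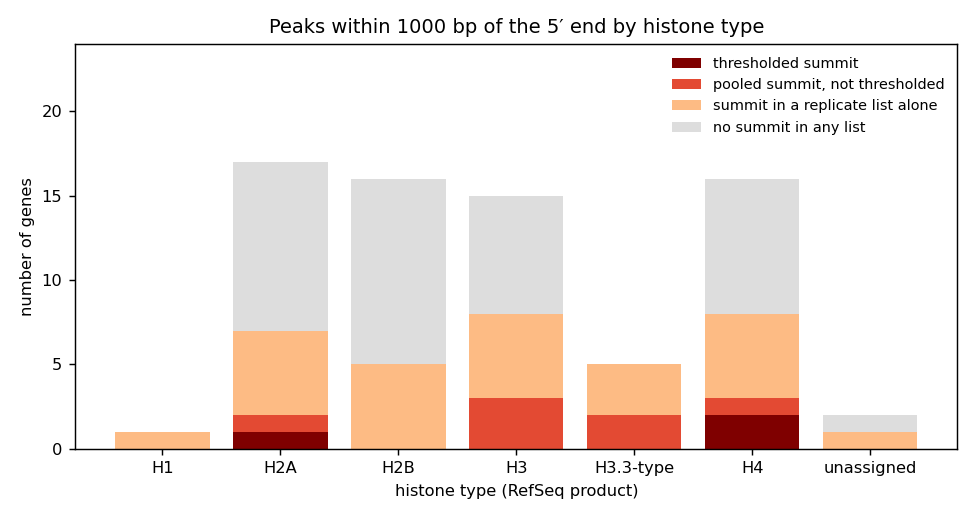
Number of histone genes of each type (RefSeq product) by the best list with a summit within 1000 bp of the 5′ end: thresholded, pooled, a replicate list alone, or none. The 3 genes with a thresholded summit are 1 H2A and 2 H4 genes, and 11 of 16 H2B genes have no summit in any list.

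The promoter sequences of histone genes shared a word that peaks elsewhere rarely held. GTGTCCCC, read on both strands, was in 21 of 31 spacers, and the next word in 20. It was the most frequent of all 8-base words there, so its frequency in spacers is how it was chosen. From 250 bp upstream to 50 bp downstream of the 5′ end, it was in 44 of 72 histone promoters (61.1%, in 25 distinct sequences) and in 63 of 19901 other protein-coding promoters (0.317%). Since 62 of the 72 genes flank the spacers, the histone share was largely set by the choice of the word. GC content also differed, with medians of 48% in histone and 34.3% in coding promoters. It was in 13 of 17 H2A, 12 of 16 H2B, 8 of 15 H3 and 10 of 16 H4 promoters, in that of his-24, and in none of the 5 H3.3-type promoters. Copies of a cluster share their sequence by descent, so these promoters are not independent.

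The 3 pooled peaks with a summit in a histone promoter held this word, at distances that varied between lists. Its centre was 6.5 bp from the summit of his-67 and his-68, which held it in 2 places, 15.5 bp from that of his-60 and his-59, and 18.5 bp from that of his-37. From the replicate 1 summits of these sites it was 39.5, 25.5 and 3.5 bp away. In replicate 2 it was 18.5 bp from the summit of his-67 and his-68, 20.5 bp from that of his-37, 47.5 bp from that of his-24 and 97.5 bp from that of his-61 and his-62. The other 4 pooled peaks at histone genes did not hold it. Of all 9931 pooled peaks, 42 (0.423%) held it, and of the 101 thresholded peaks 2 did, those of his-67 with his-68 and of his-37. In unique windows, 5 of 6 histone genes with the word had a pooled summit, and 2 of 7 without it. The 5 genes shared 3 summits, since a divergent pair has 1 spacer, and the 2 genes had 1 each. The 7 genes without the word included all 5 of the H3.3 type, so word and histone type were confounded. Of the 5 genes, his-67, his-68, his-60 and his-59 flank spacers from which the word was chosen. This contrast depends on the limit of 90%, which his-60 and his-59 passed at 90.5%. The spacers of his-61/his-62 and his-4/his-3 held the word and only unique 36-mers, but no pooled summit. Their genes were left out, with windows of 85.6% and 76.3%. Among other protein-coding genes with unique windows, the share with a pooled summit was 24.5% (13 of 53) with the word in the promoter. Without it the share was 22.4%, and none of the 53 had a thresholded summit. A match of this word is a description of the sequence, not a binding site.

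Another 7 words were counted on both strands in the same window of 300 bases, in histone and in all coding promoters. None of them contains another, and the pair of half-sites differ at the first base alone. TATAAA, the core of the TATA box, was in 47 histone promoters (65.3%) and in 37.9% of 19973 coding promoters. GAGAGA was in 33 (45.8%) against 21.8%, and CCAAT in 39 (54.2%) against 45.5%. The receptor half-site AGGTCA was in 2 (2.78%) against 8.27%, and its variant GGGTCA in 5 (6.94%) against 4.81%. Histone promoters are not independent, and the 72 held 51 distinct sequences. By distinct sequences, TATAAA was in 32, CCAAT in 30, GAGAGA in 22, GGGTCA in 3 and AGGTCA in 2. Both AGGTCA promoters, of his-31 and his-32, share the same spacer. The GGGTCA promoters of his-29, his-30, his-33 and his-34 share a spacer sequence present in 2 exact copies. ATTTGCAT, the octamer of vertebrate H2B promoters, was in 0 against 2.86%, and TTTGGCGC, an E2F-type word, in 0 against 0.941%. None of the 4 stretches printed around summits held AGGTCA or GGGTCA within its 151 bases. The median GC content was 48% in histone promoters and 34.3% in coding promoters.

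Related gene lists were set beside the share of all genes with a pooled summit, 21.0%, or 22.8% of those with unique windows. None of their genes had a thresholded summit. Of 11 variant and linker histone genes outside the his- names, 1 (9.09%) had a pooled summit, below that share, the linker histone gene hil-7, 357 bp downstream of its 5′ end with 28.3. Neither htz-1, the H2A.Z gene, nor hcp-3, a centromeric H3 gene, had one, though replicate 1 had 21.1 near htz-1. Of 13 genes for histone mRNA processing and histone chaperones, 7 (53.8%) did, above it, with signals of 22.1 to 30.6. They were cdl-1, which encodes the stem-loop binding protein of histone mRNA (27.05), the chaperone genes nap-1 (28.4), lin-53 (30.6), chaf-1 (24.8), hira-1 (26.3) and hmg-4 (22.1), and the histone acetyltransferase gene hat-1 (28.5). The summits of nap-1, lin-53 and hat-1 were at positions -249, -197 and -163. Those of cdl-1, hira-1, chaf-1 and hmg-4 were further away, at -791, -859, 465 and 317. The hmg-4 summit ranked 9177 of 9931, and replicate 1 had no summit near hat-1. Of 15 S-phase genes, all with unique windows, 4 (26.7%) had a pooled summit, near the share of all genes. They were cdc-6 (38.3), pcn-1 (37.7), cdk-2 (26.7) and cdt-1 (22.9). The replication genes cdc-6 and pcn-1 ranked 740 and 804, with summits at positions -193 and -298 from the 5′ end, and both replicates listed a summit beside them. In replicates 1 and 2, cdc-6 had 17.04 and 18.98 and pcn-1 20.03 and 17.24. The pooled signal of no gene in these 3 lists came to that of his-37 or of his-67 and his-68.

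Facts of the whole series that bear on these counts were few. The replicate lists held 25795 and 29222 peaks, with median signals of 12.8 and 10.7, and 152 and 47 of them had a q-value of at most 0.05. The pooled list had 30 such peaks. Of the genes of the transgene, nhr-11 had no summit in any list within 1000 bp, and unc-119 had 31.7 in the pooled list, 22.5 in replicate 1 and 11.97 in replicate 2.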

How the data were processed

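NHR-11 ChIP-seq of 2 replicates was used as ce11 peak lists in narrowPeak format. Per the file descriptions that the authors deposited, each replicate's list came from its own alignments with a control. The pooled list came from both replicates, and the thresholded list from these by IDR (irreproducible discovery rate). The software, read length, depth and IDR limit used are unknown here. The signal is the authors' value per peak, used within a list. The authors' −log10 column was converted to a q-value. The lists on the other build were not analysed here.

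Coordinates are on ce11 (WBcel235), from 1, with genes of Ensembl release 115. Summits were assigned by distance to the 5′ end (1000 bp), and shared summits were counted once. Unique 36-mers were counted on both strands. BLAST 2.17.0 was used to find other places that match a peak (at least 90% identity over 50 bp). Spacers were aligned with biopython 1.88. Python 3.11.15, numpy 2.4.6, pandas 2.3.3 and matplotlib 3.10.9 were used. Assignment and 36-mer counts were tested on simulated data. With 1 group, no test between conditions was possible, and none was made over genes. Genes with a thresholded summit, the strongest summit of each cluster, isolated genes and the extremes of each type were named, as were related genes with a pooled summit; other names were chosen after their values were seen. Members, lists and alternatives were chosen with earlier results of these data known. GTGTCCCC was chosen after its counts were seen, and unique windows as an alternative after the data were seen.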

Additional observations from a re-analysis of the deposited data

How the results depend on the processing

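Counts near histone genes depended on the window. At 500 bp, 6 genes had a pooled summit (5 clustered, 1 isolated), through 4 summits, 4 in all 3 lists, with median signals of 87.1 for clustered and 32.3 for isolated genes. At 2000 bp these were 20 genes, 18 of them clustered, with 18 in all 3 lists, 7 among the strongest 1000 and 5 at a thresholded summit. With a pooled q-value of at most 0.05, 3 genes at 2 summits were left, all 3 in all lists and clustered, with a median of 88.8, and 0 isolated genes, so no isolated median could be given. Without peaks that match other places, 6 genes were left (5 clustered, 1 isolated, median 32.3), 1 of them among the strongest 1000; the summits shared by his-67 and his-68, by his-60 and his-59, and that of his-74 were dropped, and his-67 kept its weaker peak.

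Leaving out a replicate, with the strongest 9931 peaks of the other one, gave 9 to 14 genes, 7 to 9 summits and 3 to 4 genes among the strongest 1000. It gave 6 to 13 clustered genes, the larger number without replicate 2, and 1 to 3 isolated genes, the larger number without replicate 1. The medians were then 19.7 to 23.5 for clustered and 14.9 to 16.9 for isolated genes, in the scale of single lists, so the clustered median was then the higher one, as at 500 bp. Counts in all 3 lists cannot be had without a replicate. With clusters of 3 or more genes, 4 isolated genes had a pooled summit, and the medians were 28.4 for clustered and 36.3 for isolated genes, so the ordering of the medians was kept. In unique windows, 5 of 9 clustered and 2 of 4 isolated genes had one. Counting peaks that overlap the window, other cluster gaps (2000 and 20000 bp) and replicate summits within 200 bp left the counts within 1.5 times. All 72 genes are protein-coding, so that restriction changed nothing. No depth was given, so a missing peak does not show absent binding.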
